A study of Mus musculus with 2 samples.

Results

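The colony-stimulating factors and their receptors were followed in mouse quadriceps during the first days after chemical injury. The 7 genes were taken by symbol from the 32285 genes listed in the count tables: the ligand genes Csf1, Il34 and Csf3, and the receptor genes Csf1r, Csf2ra, Csf2rb and Csf3r. Each had UMIs in both libraries. A UMI is a molecular tag that lets each captured RNA molecule be counted once.

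Wild-type male C57BL/6J mice aged 14 weeks received 1.2% barium chloride (BaCl2), which kills myofibers and leaves the stem cells to rebuild the muscle. Quadriceps were collected at day 1 or day 3, and the mononuclear cells were sorted by light scatter to remove dead cells and cell pairs. Those of 5 mice per day were then pooled, frozen, thawed and sequenced as 1 droplet library (10x 3′ RNA-seq). Myofibers are multinucleated and were not captured, and the samples used here hold no uninjured muscle and no other tissue. With 1 library per day there was no test between the days, and the interval given with each value covers counting error only, not the spread between mice.

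These factors are the growth and survival signals of the myeloid lineage. CSF1 and IL-34 are separate ligands of a single kinase receptor, CSF1R, on which most monocytes and macrophages depend. The receptor for GM-CSF pairs a specific alpha chain (Csf2ra) with a beta chain (Csf2rb) that is also used by the receptors for IL-3 and IL-5. G-CSF, the product of Csf3, acts through its own receptor (Csf3r) to drive the production and mobilization of neutrophils. In injured muscle, neutrophils and monocytes arrive first, and macrophages then clear debris and act on satellite cells, the stem cells of muscle, and on fibro-adipogenic progenitors (FAPs), the matrix-making stromal cells.

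The described cells numbered 6735 on day 1 and 4627 on day 3, with a median of 9389 and 14548 UMIs per cell, and the libraries shared 0 cell barcodes. The protocol in the labels names the same kit for both samples, yet 737280 barcodes were listed for day 1 and 6794880 for day 3, which are barcode lists of different length. A difference in chemistry therefore cannot be told apart from the day. Clusters were named from marker lists that held none of the 7 genes. The largest class was monocyte/macrophage-like (3522 cells on day 1 and 2807 on day 3), followed by neutrophil-like (2077 and 257), fibroblast/FAP-like (658 and 844), dendritic cell-like (397 and 454), satellite cell/myoblast-like (5 and 203) and endothelial cell-like cells (76 and 62). The summed level of the 8 neutrophil markers in the neutrophil-like cells was 86252 CPM on day 1 and 25846 on day 3, where CPM is the UMIs of a gene per 1000000 UMIs of the same group of cells. The markers of monocytes/macrophages in those cells summed to 222 and 2925 CPM, and free RNA was estimated at 2.02% and 27.6% of their UMIs. That estimate was scaled by collagen genes and Dcn and also counts RNA from doublets (cells that share a barcode). The part of RNA from other cells in the day 3 values of neutrophil-like cells was not tested.

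Different clusters made up the same class on the 2 days. Of the monocyte/macrophage-like cells, those of day 1 lay mainly in clusters led by Serpinb2 (1425 cells), Cd163 (1174) and Plac8 (735), and those of day 3 in another Plac8-led cluster (1115) and in clusters led by Fcrls (1081) and Gpnmb (555). The fibroblast/FAP-like cells were a Prg4-led cluster on day 1 (635 cells) and a Col1a1-led cluster on day 3 (835). A cluster that lies almost wholly in 1 library may reflect that library rather than a separate state.

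A gene was counted as risen or fallen when its CPM differed at least 2-fold between the days with at least 20 UMIs over both. Over all cells 36.1% of 15671 genes passed this limit, and of the 7 genes 5 passed it, Il34 upwards and Csf2ra, Csf2rb, Csf3 and Csf3r downwards. The median log2 ratio of day 3 over day 1 was -1.27 for the 7 genes and 0.49 for all genes tested. The median over all genes was also above 0 within the monocyte/macrophage-like (0.50), neutrophil-like (0.76), dendritic cell-like (0.32) and fibroblast/FAP-like cells (0.35), and was 0.03 in endothelial cell-like cells, so every ratio below is best read against the value of its own cell type.

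**Figure D1:**
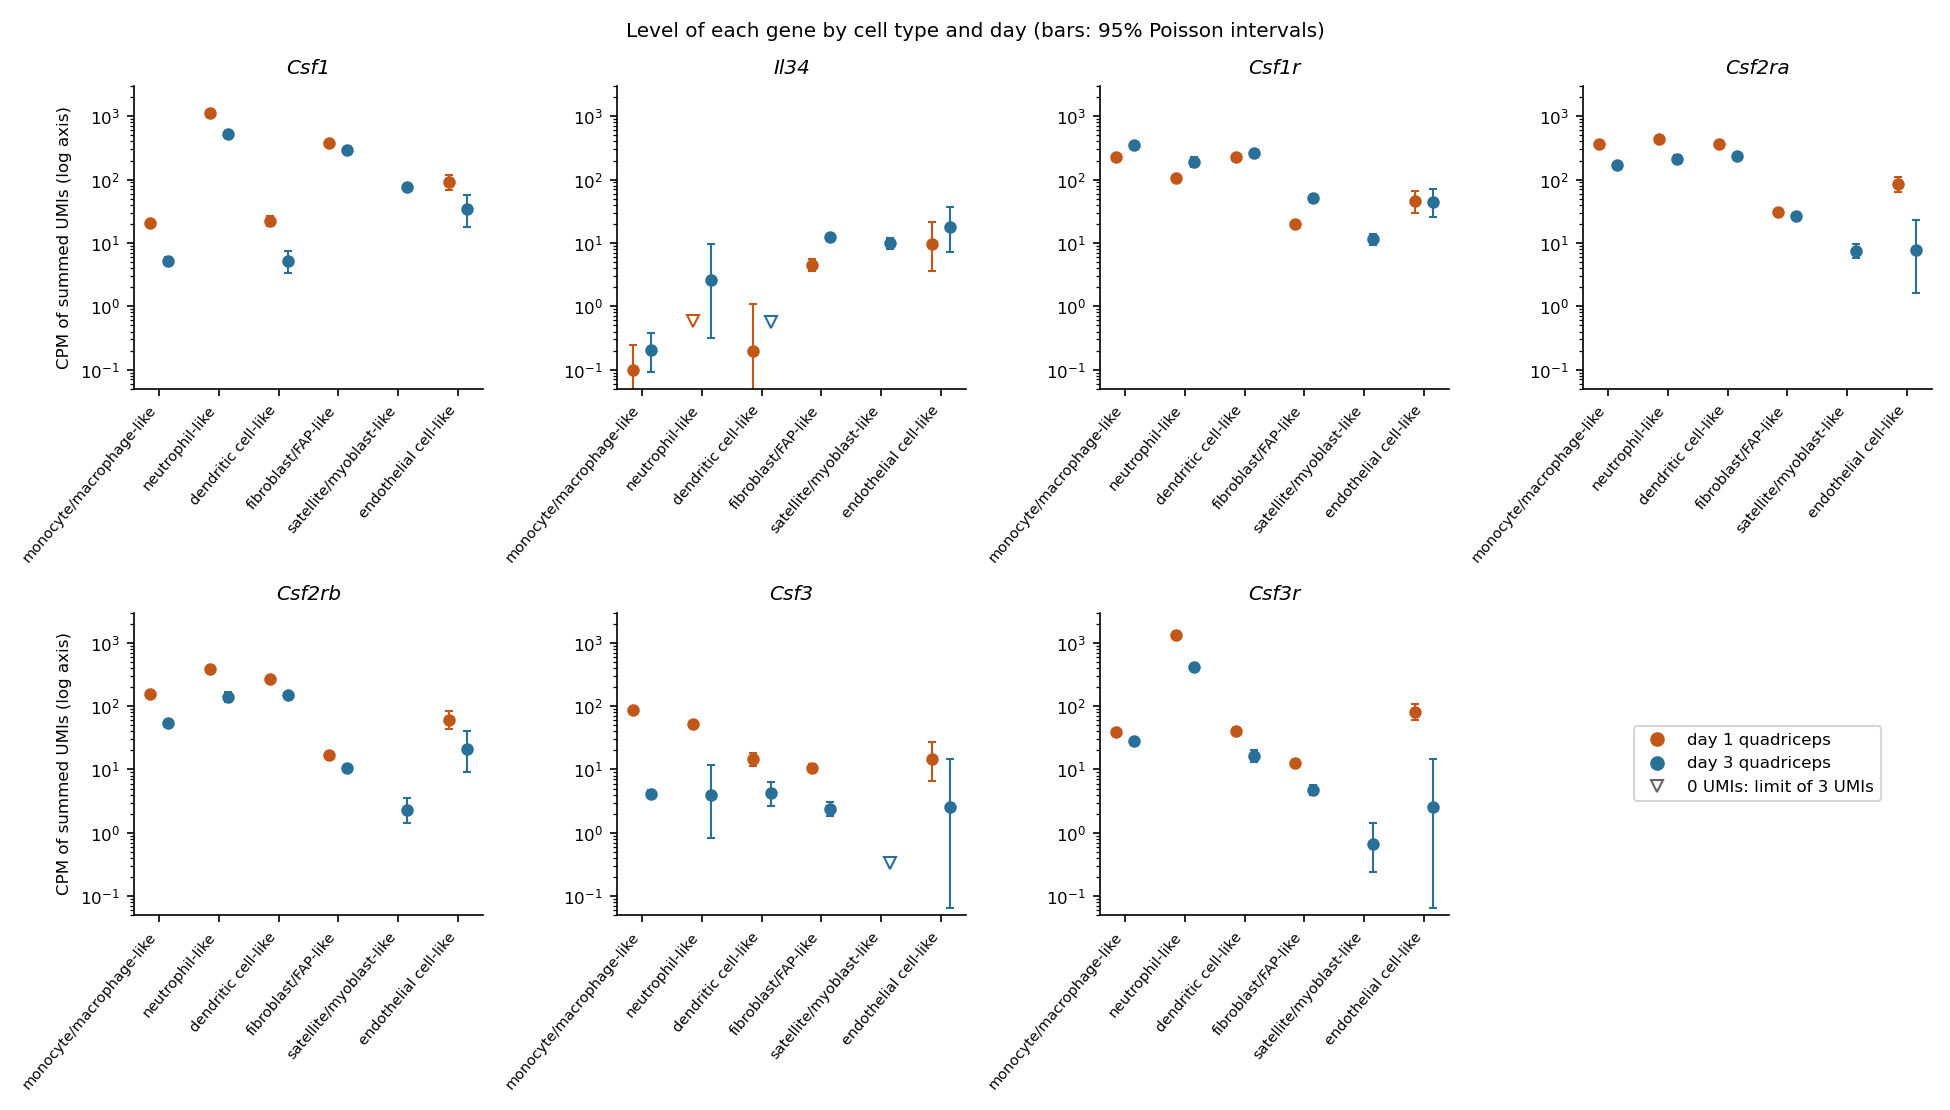
CPM of summed UMIs (log axis) of each gene in each cell type on day 1 (orange) and day 3 (blue). Bars are exact 95% Poisson intervals and open triangles mark 0 UMIs at the limit of 3 UMIs; groups under 50 cells are not drawn. Csf1 was highest in neutrophil-like cells, at 1107 CPM on day 1 and 526 CPM on day 3, and Csf3 was lower on day 3 than on day 1 in each type drawn on both days.

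Csf1 (chr3:107741048-107760469, minus strand, GRCm38), the main ligand of CSF1R, lay mainly in 2 cell types on day 1 and in 1 of them on day 3. On day 1 the fibroblast/FAP-like cells held 51.3% of its 13827 UMIs and the neutrophil-like cells 41.2%, although the latter gave few UMIs per cell. On day 3 the fibroblast/FAP-like cells held 83.6% of 8393 UMIs, the satellite cell/myoblast-like cells 8.35% and the neutrophil-like cells 4.74%. The monocyte/macrophage-like cells, the most numerous class, held 6.07% and 2.79%.

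In fibroblast/FAP-like cells Csf1 was found at 375 CPM on day 1 (95% interval 366 to 384) and 290 CPM on day 3 (283 to 297). It was present in 93.8% and 91.4% of these cells, and the log2 ratio of -0.37 (-0.42 to -0.32) did not reach 2-fold. Within this class 4 of the 7 genes passed the limit, 2 in each direction, against 33.4% of 13711 genes. The signal was spread widely, with a mean of 11.5 UMIs in each cell that had any on day 1, and at most 71 in 1 cell.

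In neutrophil-like cells Csf1 stood at 1107 CPM on day 1 and 526 CPM (475 to 580) on day 3, a log2 ratio of -1.07 (-1.22 to -0.93). It was detected in 61.5% of these cells on day 1 and 54.1% on day 3 at median depths of 2157 and 1630 UMIs, against 7.30% and 4.41% of dendritic cell-like cells at 11356 and 9870 UMIs. After each cell was thinned to 1000 UMIs the shares were 46.8% and 41.9%. Both neutrophil-like clusters carried it on day 1, at 1202 CPM in the Il23a-led cluster and 989 CPM in the Retnlg-led cluster. The log2 ratio was 0.00 when each cell took the type of its highest marker score in place of the name of its cluster. On day 3 the 139 neutrophil-like cells with a Csf1 UMI held the 7 fibroblast/FAP markers at 2427 CPM, against 398 CPM in those without. Their neutrophil markers stood at 22418 CPM against 30425 CPM. On day 1 the fibroblast/FAP markers stood at 24.0 CPM against 34.1 CPM. The part of RNA from other cells in the Csf1 level of day 3 was not tested.

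The monocyte/macrophage-like cells held little Csf1, at 20.4 CPM (19.0 to 21.8) on day 1 and 5.27 CPM (4.61 to 5.99) on day 3, with a UMI in 7.86% and 4.99% of cells. It fell by 1.95 on the log2 scale, and the ratio was under 2-fold with high doublet scores removed (-0.87) or a higher UMI limit for cells (-0.73). Both settings also changed the class: under the higher limit the cluster led by Il1a and Serpinb2 was named neutrophil-like, and in both a cluster with Wfdc21, Lcn2 and Ifitm6 among its leading genes stayed unnamed. The 277 cells with a Csf1 UMI on day 1 held the 8 neutrophil markers at 7256 CPM, against 979 CPM in the cells of the class without one, and on day 3 the 140 cells with a UMI held the 7 fibroblast/FAP markers at 635 CPM against 66.7 CPM. The part of such RNA from other cells in these values was not tested. Read on the day that held most of its cells, the Serpinb2-led cluster of day 1 had the highest level of the class, at 24.2 CPM, and the Gpnmb-led cluster of day 3 the lowest, at 3.01 CPM.

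Satellite cell/myoblast-like cells, of which only day 3 held enough to describe, carried Csf1 at 76.7 CPM (71.1 to 82.6), with a UMI in 74.4% of 203 cells. Endothelial cell-like cells held it at 91.9 CPM on day 1 and 33.7 CPM on day 3, from 57 and 13 UMIs. Of the 57 UMIs of day 1, 35 lay in 2 cells. The 12 endothelial cell-like cells with a Csf1 UMI on day 1 held the 8 neutrophil markers at 8510 CPM, against 1398 CPM in those without. On day 3 the order of the levels was neutrophil-like, fibroblast/FAP-like, satellite cell/myoblast-like, endothelial cell-like, monocyte/macrophage-like and dendritic cell-like (5.14 CPM), and only the last 2 had overlapping counting intervals.

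Il34, the other ligand of CSF1R and best known from skin and brain, was scarce and lay outside the immune cells. Its level over all cells was 1.45 CPM (1.18 to 1.76) on day 1 and 4.84 CPM (4.38 to 5.33) on day 3, from 103 and 407 UMIs, and it rose by a log2 ratio of 1.73 (1.42 to 2.07). The fibroblast/FAP-like cells held 83.5% of its UMIs on day 1 and 73.5% on day 3, and the satellite cell/myoblast-like cells 22.1% on day 3. Il34 is the only one of the 7 genes that rose over all cells.

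Within fibroblast/FAP-like cells Il34 was found at 4.55 CPM (3.64 to 5.62) on day 1 and 12.3 CPM (11 to 13.8) on day 3. The share of cells with a UMI was 7.75% and 21.8%, at similar depths of 27672.5 and 25635.5 UMIs per cell, and the log2 ratio was 1.43 (1.09 to 1.80). The rise over all cells was therefore also seen inside the class that held most of the transcript, while the class itself was a Prg4-led cluster on day 1 and a Col1a1-led cluster on day 3. The satellite cell/myoblast-like cells of day 3 carried it at 9.85 CPM, with a UMI in 30.5% of cells at a median of 44258 UMIs.

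Immune cells gave almost no Il34. The monocyte/macrophage-like cells held 4 and 9 UMIs on the 2 days, the dendritic cell-like cells 1 and 0, and the neutrophil-like cells 0 and 2. The count of 0 among 2077 neutrophil-like cells on day 1 allows a share of up to 0.144% of cells with a UMI. The gene (Il34, chr8:110741829-110805924, minus strand, GRCm38) overlaps the antisense genes Gm15894 over 3979 bases and Gm15895 over 287 bases, and whether the counting used strand is not given in the sources used here.

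**Figure D2:**
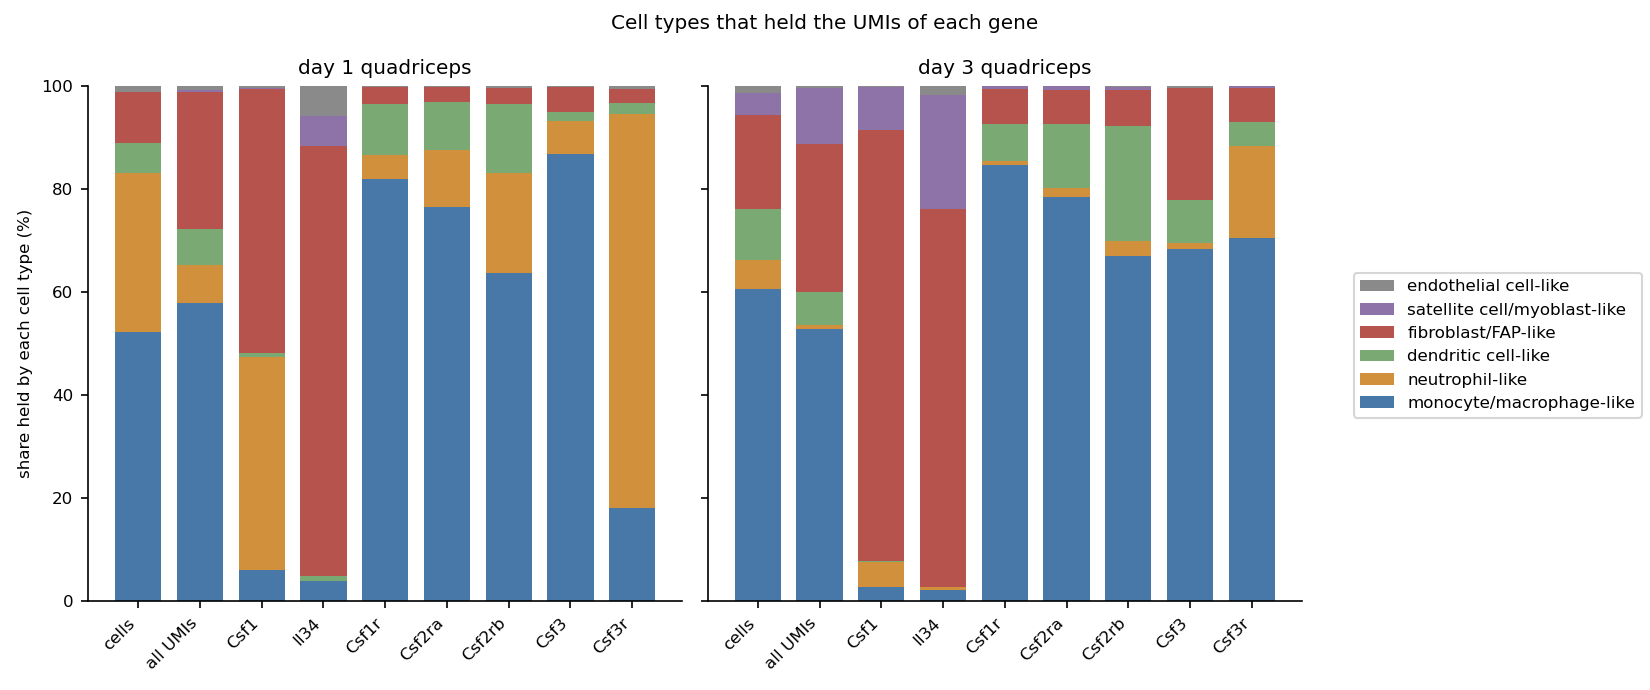
Share (%) of the cells, of all UMIs and of the UMIs of each gene held by each cell type, on day 1 (left) and day 3 (right); each bar sums to 100. The fibroblast/FAP-like share of Csf1 was 51.3% on day 1 and 83.6% on day 3, and the neutrophil-like share of Csf3r was 76.4% and 17.7%.

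The receptor for these ligands lay in other cells. Csf1r, the kinase receptor of the macrophage lineage, had 81.9% of its UMIs in monocyte/macrophage-like cells on day 1 and 84.6% on day 3, and a further 9.84% and 7.27% in dendritic cell-like cells. In monocyte/macrophage-like cells it stood at 229 CPM (224 to 234) and 355 CPM (350 to 361), with a UMI in 85.3% and 94.9% of cells. The log2 ratio was 0.63 (0.60 to 0.67), under 2-fold, and 0.14 once the median of all genes in this class was subtracted.

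Csf1r did not pass 2-fold in the other myeloid cells, and its direction there depended on the processing. It was 105 CPM and 190 CPM in neutrophil-like cells (log2 ratio 0.87) and 223 CPM and 258 CPM in dendritic cell-like cells (0.21). Relative to the median of all genes the direction turned, to -0.04 over all cells and -0.11 in dendritic cell-like cells, and it was 0.10 in neutrophil-like cells. It was -0.26 in neutrophil-like and -0.53 in dendritic cell-like cells when each cell took its highest marker score, and -0.21 in dendritic cell-like cells of clusters made from log-normalized counts. On day 3 the 57 neutrophil-like cells with a Csf1r UMI held the 10 monocyte/macrophage markers at 4957 CPM, against 575 CPM in the cells without one, and the neutrophil markers at 8087 CPM against 46376 CPM.

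Among the monocyte/macrophage-like clusters on the day that held most of their cells, Csf1r ranged from 210 CPM in the Serpinb2-led cluster of day 1 to 443 CPM in the Plac8-led cluster of day 3. The Fcrls-led cluster of day 3 had 363 CPM and the Gpnmb-led cluster 261 CPM, the latter close to the Cd163-led cluster of day 1 at 246 CPM. The Plac8-led and Fcrls-led clusters of day 3 were thus above all 3 main clusters of day 1, while the counting interval of the Gpnmb-led cluster overlapped that of the Cd163-led cluster.

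In fibroblast/FAP-like cells Csf1r was 20.1 CPM (18.1 to 22.2) on day 1 and 51.3 CPM (48.5 to 54.2) on day 3, a rise of 1.35 on the log2 scale. The summed monocyte/macrophage markers in the same cells were 412 CPM and 1278 CPM. On day 3 the 258 fibroblast/FAP-like cells with a Csf1r UMI held those markers at 2759 CPM, against 143 CPM in the cells without one, and had a median of 39170 UMIs against 22424. Free RNA was estimated to supply 48.7% of the Csf1r UMIs of this class on day 1 and 6.92% on day 3. The estimate took all S100a8, S100a9 and Retnlg UMIs of the class as free RNA, so RNA from doublets was counted with it. On day 1 the 109 cells with a Csf1r UMI held the monocyte/macrophage markers at 1479 CPM, against 64.2 CPM in those without. The part of doublets was not tested beyond the removal of high doublet scores, after which the log2 ratio was 2.30. The Csf1r gene overlaps Hmgxb3 on the opposite strand over 873 bases.

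The chains of the GM-CSF receptor fell together. Csf2ra over all cells was 280 CPM (276 to 284) on day 1 and 116 CPM (114 to 118) on day 3, and Csf2rb 142 CPM (140 to 145) and 42.5 CPM (41.1 to 43.9). Monocyte/macrophage-like cells held 76.5% and 78.5% of the Csf2ra UMIs and 63.8% and 67.0% of the Csf2rb UMIs. The base sequences upstream of Csf2ra and of Csf3r, the receptor genes with a RefSeq promoter window, are shown because both genes fell and their known regulators PU.1 and C/EBP were measured in the same cells. Capitals mark GAGGAA, a PU.1 and ETS core, and TTNNGNAA, a C/EBP motif, searched on both strands in the 250 bases before the start of the gene (RefSeq, GRCm38.p6, chr19:61228419-61228668, minus strand, for Csf2ra, and chr4:126024409-126024658, plus strand, for Csf3r).
Csf2ra: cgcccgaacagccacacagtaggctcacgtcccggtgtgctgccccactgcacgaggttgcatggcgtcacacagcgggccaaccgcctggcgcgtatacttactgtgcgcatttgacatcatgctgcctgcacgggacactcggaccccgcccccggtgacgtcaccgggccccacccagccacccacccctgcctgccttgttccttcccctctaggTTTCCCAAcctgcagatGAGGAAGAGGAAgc
Csf3r: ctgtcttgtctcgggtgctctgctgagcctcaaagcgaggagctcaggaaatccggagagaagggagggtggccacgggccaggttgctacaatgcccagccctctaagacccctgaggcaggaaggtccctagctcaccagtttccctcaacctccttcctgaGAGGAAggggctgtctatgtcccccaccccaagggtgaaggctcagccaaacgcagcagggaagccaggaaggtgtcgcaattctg
The Csf2ra window held GAGGAA at -14 and -8 and TTNNGNAA on the opposite strand at -31, counted from the RefSeq start site. The Csf3r window held GAGGAA at -86 and no TTNNGNAA. The GENCODE M21 annotation places the start of Csf2ra at 61228429 and that of Csf3r at 126024550, inside both windows. By that annotation the Csf3r match and the Csf2ra match at -8 lie within the genes, and the Csf2ra match at -14 spans the edge. Of 32851 windows of the same length 23.3% held GAGGAA and 36.8% held TTNNGNAA, so a match of either kind is common and describes these letters only.

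In monocyte/macrophage-like cells Csf2ra was 370 CPM (364 to 376) and 173 CPM (169 to 176), a log2 ratio of -1.10 (-1.14 to -1.06). It stayed widespread, with a UMI in 93.5% and 87.0% of cells, and the ratio was -0.92 when the mean of each cell's CPM was taken. Csf2rb in these cells was 157 CPM (153 to 161) and 53.9 CPM (51.8 to 56.1), with a UMI in 62.6% and 46.6% of cells, a log2 ratio of -1.54 (-1.61 to -1.47). As background, fibroblast/FAP-like cells, at a median of 27672.5 and 25635.5 UMIs, had a Csf2ra UMI in 24.2% and 31.4% of cells and a Csf2rb UMI in 14.6% and 13.7%.

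Both chains were detected in the same monocyte/macrophage-like cell in 59.6% of cells on day 1 and 42.3% on day 3. After thinning to 1000 UMIs the shares were 4.36% and 1.32%, each above the product of the single shares (4.22% and 1.06%). The UMIs of Csf2rb for each UMI of Csf2ra went from 0.424 (0.412 to 0.436) to 0.312 (0.298 to 0.327). Over the class the beta chain was thus lower relative to the alpha chain on day 3, but this did not hold between all clusters. On day 1 the ratio was 0.575 in the Plac8-led, 0.420 in the Serpinb2-led and 0.298 in the Cd163-led cluster. On day 3 it was 0.363 in the Gpnmb-led, 0.333 in the Plac8-led and 0.255 in the Fcrls-led cluster.

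Of the 6 genes with enough UMIs in monocyte/macrophage-like cells, 4 fell (Csf1, Csf2ra, Csf2rb and Csf3) and 0 rose, against 36.3% of 12962 genes past the limit in either direction. In neutrophil-like cells 5 of 6 fell, where 51.1% of 7933 genes passed. Csf2ra there was 431 CPM and 211 CPM and Csf2rb 381 CPM and 140 CPM, with log2 ratios of -1.02 and -1.44. The interval of the Csf2ra ratio, -1.27 to -0.80, spans the 2-fold limit, and under the alternatives tried the ratios lay between -1.79 and -0.39 for Csf2ra and between -2.20 and -0.63 for Csf2rb.

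In dendritic cell-like cells 3 of 6 genes fell (Csf1, Csf3 and Csf3r), where 23.3% of 10112 genes passed the limit. Csf1 there had a log2 ratio of -2.10 (-2.78 to -1.50), which turned to 1.41 in clusters made from log-normalized counts. The 8 neutrophil markers in this class summed to 1405 CPM on day 1 and 142 CPM on day 3. On day 1 they stood at 9507 CPM in its 29 cells with a Csf1 UMI, against 393 CPM in those without, and at 5914 CPM in its 76 cells with a Csf3r UMI, against 156 CPM. Their part in these falls was not tested. GM-CSF receptor chains there stayed nearer to their day 1 level: Csf2ra was 362 CPM and 233 CPM and Csf2rb 266 CPM and 151 CPM, log2 ratios of -0.64 and -0.82. Dendritic cell-like cells held 13.3% of the Csf2rb UMIs on day 1 and 22.2% on day 3, when they were 5.89% and 9.81% of the cells. The cluster scored almost equally on the dendritic cell list (2.86) and on the monocyte/macrophage list (2.83), and its leading genes were MHC class II genes.

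Within the monocyte/macrophage-like class the clusters differed. Csf2ra was highest in the Plac8-led (411 CPM) and Serpinb2-led (397 CPM) clusters of day 1 and lowest in the Fcrls-led (141 CPM) and Gpnmb-led (136 CPM) clusters of day 3. Csf2rb ranged from 236 CPM in the Plac8-led cluster of day 1 to 49.5 CPM in the Gpnmb-led and 36.0 CPM in the Fcrls-led cluster of day 3. The Plac8-led clusters of both days shared the monocyte genes Plac8 and Ly6c2. Their other leading genes differed, such as Mmp8 on day 1 and Slfn4 on day 3. Between them Csf2rb was 236 CPM and 87.8 CPM, Csf2ra 411 CPM and 264 CPM and Csf1r 223 CPM and 443 CPM. The cluster of day 3 also held 164 cells of day 1, with 222 CPM of Csf2rb, 340 of Csf2ra and 286 of Csf1r. That of day 1 held 34 cells of day 3, with 132 CPM of Csf2rb, 252 of Csf2ra and 249 of Csf1r.

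The balance of the receptor messages moved accordingly. In monocyte/macrophage-like cells there were 1.46 Csf1r UMIs (1.41 to 1.51) for each Csf2rb UMI on day 1 and 6.59 (6.31 to 6.88) on day 3. In dendritic cell-like cells the ratio was 0.839 and 1.71. These ratios compare the same gene pair between days and are not molecules of protein.

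Csf2rb lies at chr15:78325752-78353847 (plus strand, GRCm38) beside Csf2rb2, its paralog in the mouse that serves IL-3. The paralog holds 18.4% of the 50-base words of the 4900-base Csf2rb transcript, but 0% of those in the last 500 bases, which 3′ libraries mainly read. Csf2rb2 stood at 23.2 CPM and 10.1 CPM over all cells and fell by 1.2 on the log2 scale. The GM-CSF gene itself, Csf2, was found on day 1 in 35 cells with 169 UMIs, of which 78.1% lay in fibroblast/FAP-like and 13% in endothelial cell-like cells, and 20 of the 22 endothelial UMIs lay in 1 cell. On day 3 it had 1 UMI (log2 ratio -7.06, interval -12.96 to -5.15). Il5 had 86 UMIs on day 1 in 6 cells and 1 on day 3 (log2 ratio -6.09), and Il3 and Il5ra had 0 UMIs on both days.

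**Figure D3:**
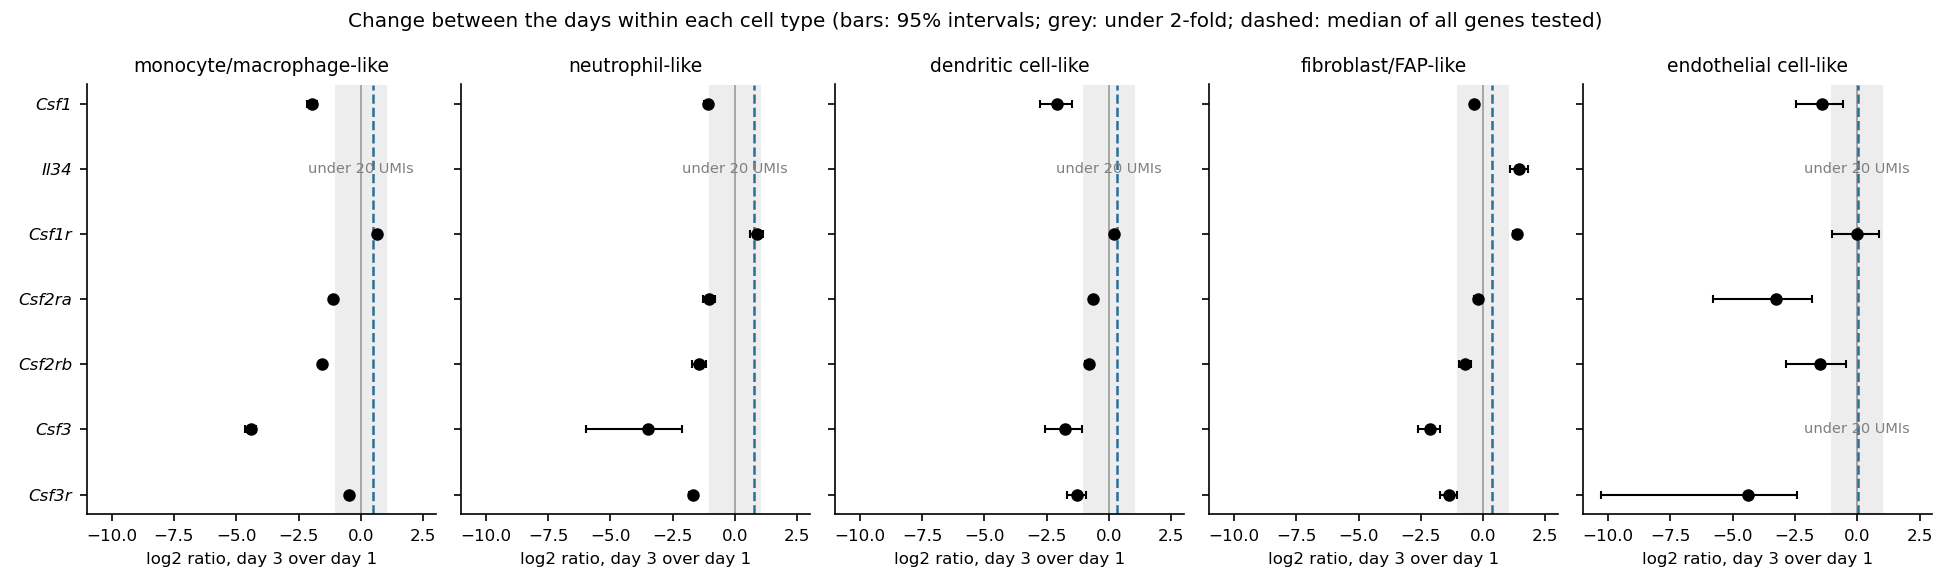
log2 ratio of CPM, day 3 over day 1, of each gene within 5 cell types; bars are exact 95% intervals for counting error, the grey band is under 2-fold and the dashed line is the median of all genes tested. Csf3 lay furthest below the median in monocyte/macrophage-like cells, at -4.42, and Il34 and Csf1r were past 2-fold upwards in fibroblast/FAP-like cells.

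Csf3 (chr11:98701263-98703629, plus strand, GRCm38), which encodes G-CSF, had the largest ratio of the 7 genes over all cells. It was 58.5 CPM (56.8 to 60.3) on day 1 and 3.16 CPM (2.79 to 3.56) on day 3, from 4163 and 266 UMIs, a fall of 4.21 on the log2 scale. Monocyte/macrophage-like cells held 86.8% of its UMIs on day 1 and 68.4% on day 3. There it went from 87.7 CPM (84.9 to 90.6) to 4.10 CPM (3.52 to 4.74), 21.4-fold lower, and under the alternatives tried the log2 ratio lay between -4.91 and -3.66.

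The transcript was concentrated in few cells. On day 1, 580 of 3522 monocyte/macrophage-like cells had a UMI (16.5%), 65 cells held 50% of the UMIs and 1 cell held 79. The 120 cells with at least 10 UMIs held 2484 of 3614. On day 3 only 44 of 2807 cells had a UMI (1.57%), and 0 of 203 satellite cell/myoblast-like cells, which allows a share of up to 1.48%.

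On day 1 Csf3 separated the monocyte/macrophage-like clusters more than any of the other genes plotted. The Serpinb2-led cluster had 148 CPM with a UMI in 25.8% of cells, the Cd163-led cluster 64.9 CPM in 14.7%, and the Plac8-led cluster 8.0 CPM in 3.40%. The first of these, whose leading genes also include Il1a, Ptgs2, Cxcl3 and Il1b, held 60.5% of all Csf3 UMIs of that day. The Plac8-led, Fcrls-led and Gpnmb-led clusters of day 3 had 3.99, 4.6 and 2.25 CPM.

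In neutrophil-like cells Csf3 was 51.2 CPM (45.2 to 57.8) on day 1, in 3.95% of cells, and 3.96 CPM on day 3 from 3 UMIs. The 82 cells with a UMI on day 1 held the neutrophil markers at 89459 CPM, against 86070 CPM in those without. In fibroblast/FAP-like cells Csf3 was 10.7 CPM (9.26 to 12.3) and 2.39 CPM (1.82 to 3.09), with a UMI in 5.93% and 1.90% of cells, and it fell by 2.15 on the log2 scale. Free RNA was estimated to supply 46.6% of those UMIs on day 1 and 2.39% on day 3, and with it subtracted the ratio was -1.28. This estimate also counts RNA from doublets with neutrophils. On day 1 the 39 cells with a Csf3 UMI held the neutrophil markers at 1579 CPM, against 527 CPM in those without. In dendritic cell-like cells 74 UMIs were found on day 1 and 22 on day 3, of which 17 lay in 1 cell.

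**Figure D4:**
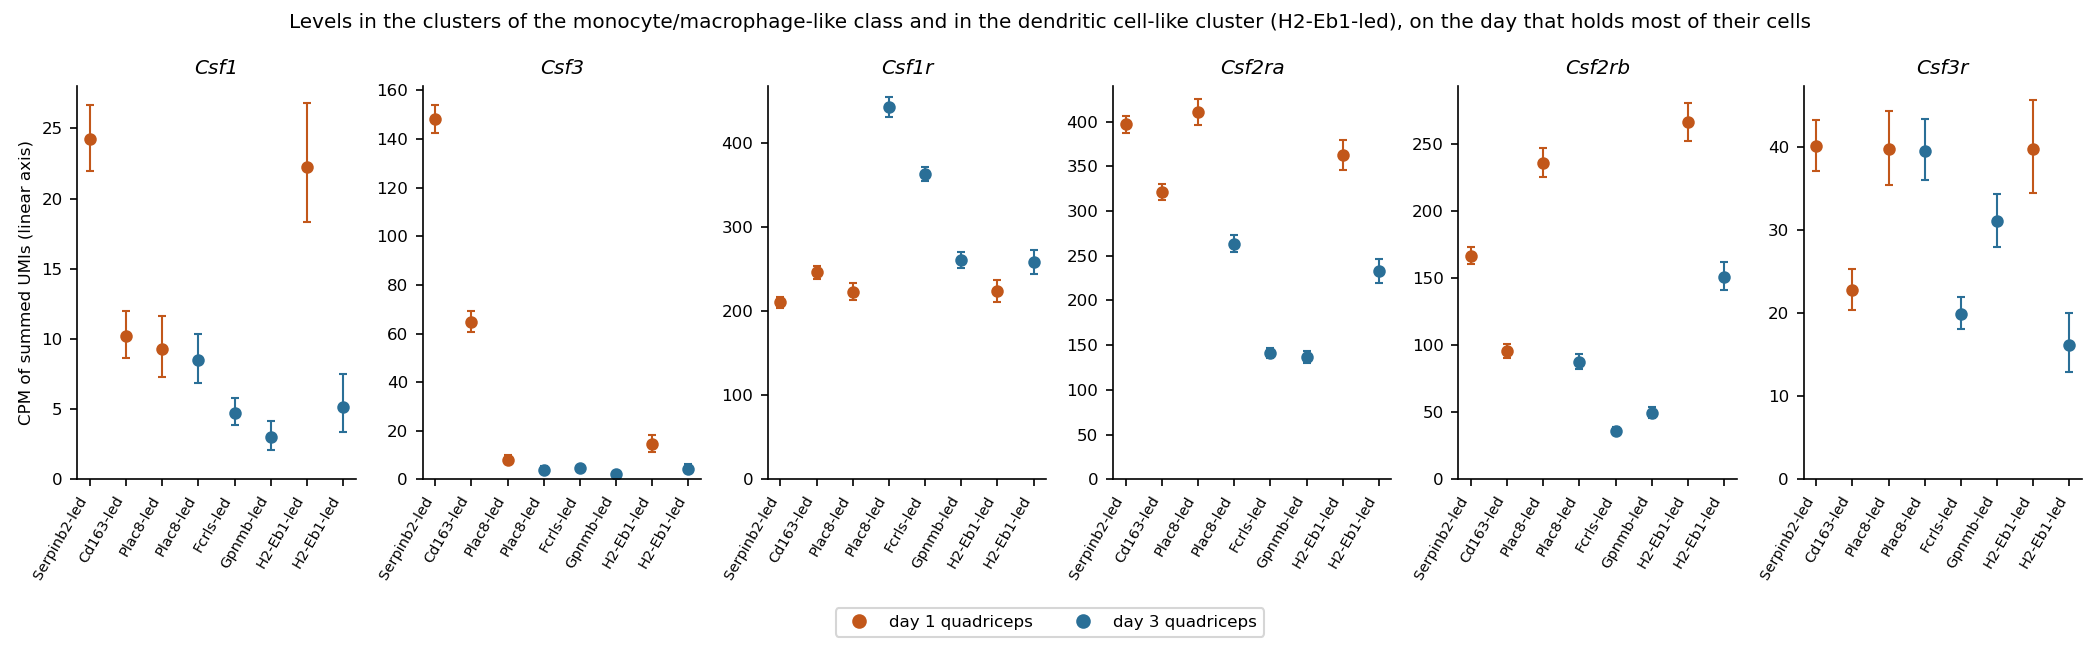
CPM (linear axis) of 6 genes in each cluster of the monocyte/macrophage-like class and in the dendritic cell-like cluster led by H2-Eb1, on the day that held most of its cells (orange, day 1; blue, day 3) with exact 95% Poisson intervals; the H2-Eb1-led cluster is drawn for both days. Csf3 stood at 148 CPM in the Serpinb2-led and 64.9 CPM in the Cd163-led cluster, and Csf1r reached 443 CPM in the Plac8-led cluster of day 3.

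Csf3r, the G-CSF receptor, was held mainly by neutrophil-like cells on day 1 (76.4% of 8867 UMIs) and by monocyte/macrophage-like cells on day 3 (70.6% of 1764 UMIs). Over all cells it was 125 CPM and 21 CPM and fell by 2.57 on the log2 scale, while the neutrophil-like share of cells was 30.8% and 5.55%. In neutrophil-like cells it was 1315 CPM on day 1 and 412 CPM (368 to 460) on day 3, with a UMI in 90.9% and 62.6% of cells, a log2 ratio of -1.67 (-1.84 to -1.51). As background, it was detected in 2.96% of satellite cell/myoblast-like cells on day 3 at a median of 44258 UMIs, against 1630 in neutrophil-like cells.

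The neutrophil-like values of day 3 rest on 257 cells. Of these the 161 with a Csf3r UMI held the neutrophil markers at 40714 CPM, against 11135 CPM in the 96 without. Their monocyte/macrophage markers stood at 1893 CPM against 3946 CPM. Over the whole class the neutrophil markers went from 86252 CPM on day 1 to 25846 CPM on day 3. The part of RNA from other cells in the fall of Csf3r was not tested. The log2 ratio of Csf3r was under 2-fold when each cell took its highest marker score (-0.69), when the mean of each cell's CPM was taken (-0.97) and in clusters made from log-normalized counts (-0.97). The Retnlg-led and Il23a-led clusters held Csf3r at 1413 CPM and 1236 CPM on day 1 and at 414 CPM and 408 CPM on day 3.

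In monocyte/macrophage-like cells Csf3r was 38.9 CPM (37.0 to 40.9) and 28.0 CPM (26.5 to 29.6), a log2 ratio of -0.47 that did not pass 2-fold and turned to 0.14 with high doublet scores removed and 0.19 with a higher UMI limit for cells. The share of cells with a UMI, 24.2% and 32.1%, went against the CPM, and after thinning to 1000 UMIs it was 3.42% and 3.26%, so no order was read from it. The 853 cells with a Csf3r UMI on day 1 held the neutrophil markers at 4140 CPM against 646 CPM in those without, and the 902 cells of day 3 at 535 CPM against 343 CPM. The day 1 cells of the Plac8-led cluster of day 3 (164 cells) had 190 CPM of Csf3r and 132 CPM of Csf1, against 39.7 CPM and 9.27 CPM in the Plac8-led cluster of day 1. In fibroblast/FAP-like cells Csf3r was 12.4 CPM and 4.75 CPM, a log2 ratio of -1.39 that turned to 0.20 once free RNA, estimated at 72.0% and 15.3% of its UMIs, was subtracted. This estimate also counts RNA from doublets with neutrophils. On day 1 the 76 cells with a Csf3r UMI held the neutrophil markers at 3047 CPM, against 115 CPM in those without. The parts of free RNA and of doublets were not told apart.

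The cluster named endothelial cell-like, led by Cldn5, Egfl7 and Cdh5, also held markers of other cells, and these differed between the days. Its endothelial markers summed to 2748 CPM on day 1 and 1578 CPM on day 3, erythroid markers to 2669 and 7.78 CPM, neutrophil markers to 3005 and 67.5 CPM, T/NK cell markers to 105 and 1632 CPM and mural cell markers to 295 and 1054 CPM. Of 5 genes with enough UMIs in it, 4 were at least 2-fold lower on day 3, where 22.3% of 6409 genes passed the limit. Csf2ra had 53 and 3 UMIs, Csf2rb 38 and 8, Csf3r 50 and 1 and Csf1 57 and 13, while Csf1r had 28 and 17 (45.2 CPM and 44.1 CPM). The part of the other cells in these differences was not tested, and under the alternatives tried the ratio of Csf2ra lay between -5.87 and -0.34 and that of Csf2rb between -2.25 and -0.49.

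The pathway genes outside the receptors were read from fixed lists. Among 12 genes of CSF1R signalling, 0 rose over all cells and 1 fell, Fgr, a Src-family kinase (log2 ratio -1.40), with a list median of -0.09 against 0.49 for all genes tested. In monocyte/macrophage-like cells 0 of the 12 passed the limit in either direction, where 36.3% of all genes did, and the median was 0.09 against 0.50 for all genes. The signalling genes Tyrobp, Grb2, Cbl and Lyn were among those that did not pass.

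Of 9 genes of JAK-STAT signalling and its feedback, the route used by the GM-CSF and G-CSF receptors, 3 fell and 0 rose in monocyte/macrophage-like cells. Of all 12962 genes tested there, 36.3% passed the limit, 750 downwards and 3959 upwards. Socs3, an inhibitor of G-CSF receptor signalling, was 402 CPM and 75 CPM (log2 ratio -2.42), Cish, a STAT5 target, was 22.8 CPM and 5.79 CPM (-1.98), and Pim1, another STAT target, had a ratio of -1.36. The same 3 fell over all cells (-1.69, -1.64 and -1.59), where the median of the list was -0.62. In neutrophil-like cells 5 of the 9 fell and 1 rose, where 51.1% of all genes passed, and in fibroblast/FAP-like cells 1 rose, Jak2, from 23.4 CPM to 97 CPM.

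Of 7 transcription factors known to act on Csf1r, Csf2ra or Csf3r, 1 rose and 3 fell in monocyte/macrophage-like cells, where 36.3% of all genes passed. Cebpa, a factor of myeloid precursors, rose from 61.7 CPM to 140 CPM (log2 ratio 1.18). Cebpb, the inflammatory member of the family, fell by 1.96, Cebpe, the factor of granule genes, fell by 2.0 and Ets2 fell by 1.87 on the log2 scale. Spi1, which encodes PU.1, had a log2 ratio of -0.34 over all cells and did not pass.

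The shorter lists gave the remaining values. The other ligands of the GM-CSF receptor family gave 2 genes with enough UMIs over all cells, Csf2 and Il5, and both fell. Of the other receptor chains, 1 of 2 with enough UMIs fell over all cells (Csf2rb2), and Il3ra, the IL-3 receptor alpha chain, rose in fibroblast/FAP-like cells from 16.1 CPM to 53.4 CPM. Of the IL-34 co-receptors and sheddases, Ptprz1 rose over all cells from 3 to 22 UMIs, Adam17, which sheds CSF1R, rose in fibroblast/FAP-like cells from 29.3 CPM to 71.5 CPM, and Sdc1 fell in monocyte/macrophage-like cells by 1.10. Of the related receptor and ligand genes Flt3, Flt3l, Kit and Kitl, Flt3 rose over all cells (log2 ratio 1.10) and, with Flt3l and Kit, in dendritic cell-like cells. The share of all genes past the limit was 36.1% over all cells, 36.3% in monocyte/macrophage-like, 33.4% in fibroblast/FAP-like and 23.3% in dendritic cell-like cells. Of the genes past it, 83.3%, 84.1%, 78.5% and 83.2% were higher on day 3, so a rise was the usual direction.

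Across the 11 groups of cell type and day with at least 50 cells, the genes whose log2(CPM + 1) most resembled each member were found among 10274 genes. Csf1 was closest to Rnf11 (Pearson's r 0.92), Igf1r and F3, and Il34 to Emp2 (0.99), Nbea and Tspan6. Csf1r was closest to Ctsa (0.98), Dnase2a and P2ry6, Csf2ra to Sirpb1c (0.99), Ugt1a7c and Klra2, and Csf2rb to Fgr (0.98), Ncf4 and Rasgrp4. Csf3 was closest to Slc2a1 (0.91), Cxcl3 and Gm11713, and Csf3r to F630028O10Rik (0.98), Gpr84 and Rab7. Among the members, Csf2ra and Csf2rb had an r of 0.93, Csf1r and Csf2ra 0.84 and Il34 and Csf2ra -0.89. The groups share 2 libraries and differ in depth, and these values describe likeness of pattern only.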

How the data were processed

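Single-cell RNA-seq counts were used from 2 samples, day 1 and day 3 quadriceps. The deposited tables hold raw UMI counts per gene and barcode, made by the authors with Cell Ranger (5.0.0 per the processing notes, 4 in the file headers) on mm10 with no call of cells. Total UMIs were 74852240 on day 1 and 102565783 on day 3.

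The 7367 and 6640 barcodes with most UMIs, the numbers the study states, were taken, and those with under 1000 UMIs, under 200 genes or over 7.5% mitochondrial UMIs were left out. Cells were normalized by SCTransform and clustered in Seurat 5.3.0 (R 4.3.3, sctransform 0.4.2) with 3000 variable features, from which members, markers and pathway genes were removed, 10 principal components and a resolution of 0.8. A cluster was named where at least 3 markers of a list were raised 2-fold over the lower quartile of clusters and its 10 leading genes did not hold more markers of a different list. Monocyte and macrophage lists were joined as 1 class. Leading genes were read against the other cells of the library that held most of the cluster. Doublets were kept, because the threshold of Scrublet marked only 2 and 0 cells, and an alternative removed the 363 and 171 highest scores.

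Counts were summed per cell type and day and given as CPM with exact Poisson intervals, shares with Clopper-Pearson intervals, and log2 ratios with exact binomial intervals at 95% and 0.5 added to each count (Python 3.11.15, numpy 2.4.6, scipy 1.17.1, pandas 2.3.3, scanpy 1.11.5). Shares of cells were also computed after thinning each cell to 1000 UMIs. A count of 0 was given the limit of 3 counts. Free RNA was profiled in barcodes with at most 100 UMIs and scaled by Col1a1, Col1a2, Col3a1 and Dcn, or by S100a8, S100a9 and Retnlg in fibroblast/FAP-like cells. All UMIs of the scaling genes in a class were taken as free RNA, so the estimates also count RNA from doublets. Intervals and fold calls were tested on Poisson counts simulated for summed cells. These hold no clumping of UMIs within cells, so that test cannot show how the intervals hold for genes concentrated in few cells, such as Csf3. Positions came from GENCODE M21 and upstream sequences from RefSeq (3 of the 7 genes matched). Named were the 7 members, the pathway list genes past 2-fold or typical of a list, and for each member the 3 genes of most similar pattern. The members and lists were chosen with earlier results of these data known. The alternatives were a higher UMI limit for cells, a mitochondrial limit of 15%, removal of doublets, the highest marker score per cell, a resolution of 0.4, log-normalized counts, the mean of each cell's CPM, subtraction of free RNA and, chosen after seeing the data, centring on the median of all genes.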

Additional observations from a re-analysis of the deposited data

Results flagged for a closer look

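Cells over the mitochondrial limit of 7.5% entered no comparison, and with at least 1000 UMIs and 200 genes they numbered 277 on day 1 and 1804 on day 3. All 7 genes but Il34 on day 1 lay above the limit that a count of 0 allows in them. On day 1 Csf1 stood at 380 CPM (194 CPM in the kept cells), Csf1r at 194 CPM (162), Csf2ra at 324 CPM (280), Csf2rb at 242 CPM (142), Csf3 at 50.2 CPM (58.5) and Csf3r at 404 CPM (125). On day 3 Csf1 stood at 76.9 CPM (99.7), Il34 at 4.12 CPM (4.84), Csf1r at 220 CPM (221), Csf2ra at 116 CPM (116), Csf2rb at 47.4 CPM (42.5), Csf3 at 4.02 CPM (3.16) and Csf3r at 28.3 CPM (21). The widest gap between left-out and kept cells was that of Csf3r on day 1.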

How the results depend on the processing

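No paired analysis was possible because each day is 1 library and no test was made. Of the alternative values of the results fixed for comparison, 38 moved by less than the counting interval and 29 by more, and none changed direction. Of the other values 129 stayed within it, 78 moved, and 3 that were past 2-fold changed sign or fell to 0. In monocyte/macrophage-like cells the log2 ratio of Csf1 was -0.73 with the higher UMI limit, -0.87 without doublets, -1.65 by marker score, -2.31 with log-normalized counts, -1.41 as the mean of each cell's CPM and -2.45 centred on the median. In the same cells Csf1r was 0.57 with the higher UMI limit, 0.74 as the mean of CPM and 0.14 centred. Csf2ra was -1.19 without doublets, -1.04 by marker score, -0.92 as the mean and -1.60 centred, and Csf2rb -1.65, -1.38, -1.33 and -2.04, with -1.47 from log-normalized counts. In neutrophil-like cells Csf3r was -1.15 with the 15% limit, -1.02 without doublets, -0.69 by marker score, -0.97 with log-normalized counts, -0.97 as the mean and -2.43 centred. In fibroblast/FAP-like cells Csf1 was -0.29 as the mean and -0.72 centred, and Csf3 was -1.28 with free RNA subtracted. Over all cells Il34 was 2.07 as the mean and 1.24 centred. The 3 were Csf1 in neutrophil-like cells by marker score (0.00) and in dendritic cell-like cells with log-normalized counts (1.41), and Csf3r in fibroblast/FAP-like cells with free RNA subtracted (0.20). Ratios under 2-fold also changed sign: Csf3r in monocyte/macrophage-like cells (0.14 without doublets, 0.19 with the higher UMI limit), Csf2ra (0.87 without doublets, 1.07 with free RNA subtracted) and Csf2rb (0.29 without doublets) in fibroblast/FAP-like cells, and Csf1r by marker score in neutrophil-like (-0.26) and dendritic cell-like cells (-0.53), with log-normalized counts in the latter (-0.21), centred over all cells (-0.04) and in dendritic cell-like cells (-0.11), and under 4 settings in endothelial cell-like cells (up to 0.71). The causes were not tested. With at least 100 UMIs per gene the share of all genes past 2-fold was 31.3% over all cells, 31.9% in monocyte/macrophage-like, 37.4% in neutrophil-like, 15.7% in dendritic cell-like, 28.4% in fibroblast/FAP-like and 18.4% in endothelial cell-like cells. Not run were Il34 over all cells under the settings that change only types, and Csf3r in neutrophil-like cells with the higher UMI limit, which left under 50 cells on a day. No cluster was named dendritic cell-like at the resolution of 0.4 or without doublets, or endothelial cell-like with the higher UMI limit. The endothelial cell-like cluster from log-normalized counts held 16 cells on day 3, under the limit of 50. These values were therefore not given. Pooled mice give no spread between animals, and neutrophil-like cells, at a median of 2157 and 1630 UMIs, limit what can be seen of scarce genes such as Il34.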
